A study of Homo sapiens with 6 samples.

Results

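hsa-miR-186-5p, hsa-miR-139-5p and hsa-miR-345-5p are 3 microRNAs that have been reported as tumour suppressors in colorectal cancer. They were taken by name from the 2575 mature miRNA entries counted in exosomes of the human colorectal cancer line HCT116. All 3 were among the 195 entries with enough counts to be tested. They were chosen by their log2 fold change between the groups compared here, so their differences are given as a description, with no test.

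Exosomes are small vesicles that cells release into their medium. They were collected by centrifugation from medium of HCT116 cells at passage 16 to 19. In 3 libraries, titled ETBF, the cells had shared their medium for 6 h with ETBF at a multiplicity of infection of 500. ETBF stands for enterotoxigenic Bacteroides fragilis, a gut bacterium that secretes a toxin acting on the colonic epithelium. In the other 3 libraries, titled untreated, they had received bacterial medium with no ETBF. Both groups share 1 cell line and 1 culture medium. The labels name neither serum nor a test of vesicle purity. The deposited file names give each library the opposite group to its title in 6 of 6 libraries. Groups below follow the titles, so each "higher" becomes "lower" if the file names are right, while sizes and errors stay as they are. The labels do not say that the replicates were separate cultures, so the spread between libraries may be technical.

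A miRNA is cut from a hairpin in a longer transcript. One of the hairpin's arms usually enters an Argonaute protein and is kept, while the other is mostly degraded. Bases 2 to 8 of the kept arm, the seed, pair with target messenger RNAs. When a hairpin lies in an intron of a host gene on the same strand, miRNA and host can be made from 1 transcript. miR-139-5p is known to repress IGF1R and NOTCH1, miR-345-5p to repress the antiapoptotic gene BAG3, and miR-186-5p has been reported to repress the cytoskeletal kinase ROCK1.

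The mature sequences of 2 of the 3 members matched the RefSeq table by name (GRCh38.p14). They are shown, 5′ to 3′ with the seed in capitals, because miRNAs that share a seed are grouped into families with shared targets.
hsa-miR-139-5p: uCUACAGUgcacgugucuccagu
hsa-miR-345-5p: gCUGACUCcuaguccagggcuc
The miR-139-5p sequence has 23 bases, 52.2% of them G or C, and the miR-345-5p sequence has 22 bases, 63.6% of them G or C. Among the 2370 mature names in that table, 0 others share the seed of miR-139-5p and 0 others share the seed of miR-345-5p. Each of the 3 members has 1 locus, so none of their counts adds up reads from several gene copies.

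The hairpins are shown with both mature arms in capitals, because the arms were counted as separate entries.
MIR139: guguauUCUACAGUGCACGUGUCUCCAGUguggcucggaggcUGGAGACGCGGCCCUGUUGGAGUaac
MIR345: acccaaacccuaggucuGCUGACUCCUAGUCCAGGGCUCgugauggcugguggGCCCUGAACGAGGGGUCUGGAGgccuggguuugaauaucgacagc
In the 68-base MIR139 hairpin the 5p arm covers positions 7 to 29 and the 3p arm 43 to 65, and in the 98-base MIR345 hairpin they cover 18 to 39 and 54 to 75, counted from the hairpin's first base.

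The 3 genes lie on different chromosomes, and the annotation placed 2 of them, not all 3, inside an intron. The positions below are those of GENCODE release 29 and RefSeq on GRCh38, not of the submitters' build GRCh37.p5, and no count was assigned by them. MIR186 lies at chr1:71067631-71067716 on the minus strand, within an intron of all 4 transcripts of ZRANB2 that span it. ZRANB2 encodes a zinc finger protein of the splicing machinery. MIR139 lies at chr11:72615063-72615130 on the minus strand, within an intron of all 17 transcripts of PDE2A that span it. PDE2A encodes a phosphodiesterase that breaks down cyclic AMP and cyclic GMP. MIR345 lies at chr14:100307859-100307956 on the plus strand and within 0 annotated genes other than itself. The nearest protein-coding gene, SLC25A29, which encodes a mitochondrial transporter of basic amino acids, lies on the opposite strand with its start 1312 bp away. The name "intronic" therefore holds for miR-186 and miR-139 in this annotation and not for miR-345.

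The 6 libraries held 200207 to 417321 counts, with means of 287525 in the titled untreated and 296576 in the titled ETBF group (two-sided exact permutation p = 0.9 over 3 libraries a group, where 0.1 is the smallest p possible). A count of 3, used as the floor of detection, stood at 8.29 to 14.6 counts per 1000000 (CPM) after scaling by TMM, a method that sets the libraries on a common scale from the bulk of their entries. Library composition differed between the groups: entries that overlap structural RNAs, mainly miR-7641, took 16.1% to 28.3% of the titled untreated counts and 0.532% to 0.930% of the titled ETBF counts. Epithelial and gut markers were present, with 10 of 11 tested, 0 of 11 at 0 in every library, and summed levels of 49158 to 51053 CPM in the titled untreated and 40615 to 46572 CPM in the titled ETBF libraries. Other-tissue markers, of muscle, liver, brain, pancreas and stroma, summed to 38254 to 40092 CPM and 31818 to 36102 CPM. Of the 19 listed 12 were tested, and miR-208a-3p and miR-208b-3p were at 0 in every library. The 9 blood-cell markers summed to 1499 to 1649 CPM and 1313 to 1555 CPM, with 6 of 9 tested and 0 of 9 at 0 in every library. The part of these other sources in the members' levels was not tested.

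**Figure D1:**
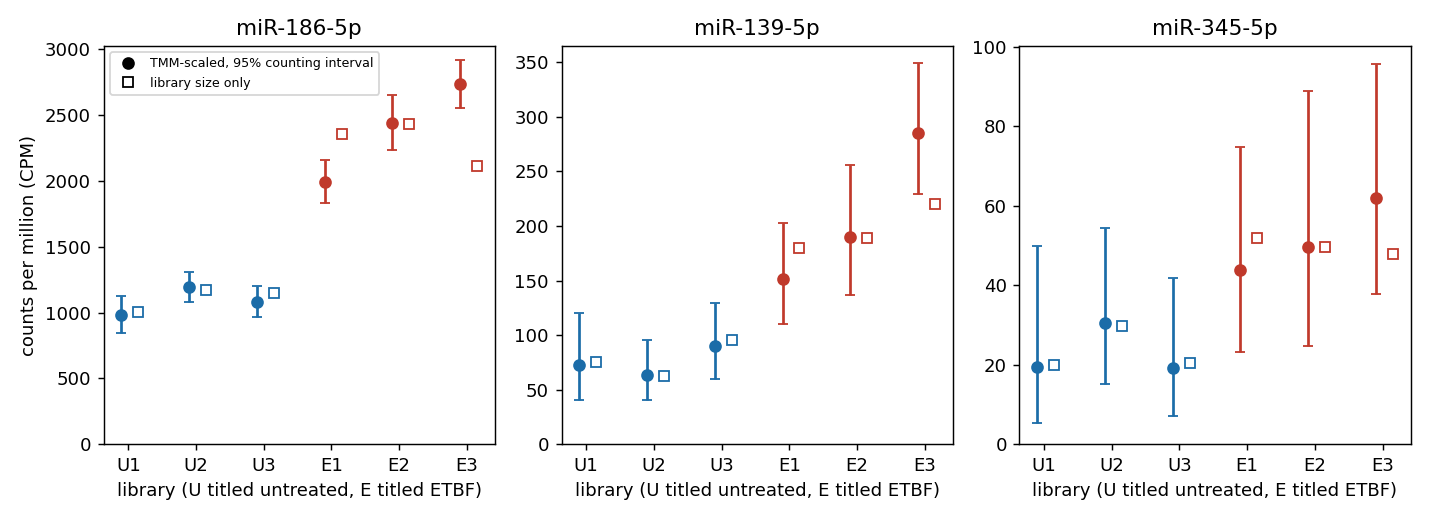
Level of each miRNA in each library, in CPM (linear axes from 0). Filled circles are TMM-scaled with the exact 95% Poisson interval of the count, open squares are scaled by library size alone, blue libraries are titled untreated and red ones titled ETBF. All 3 red circles lie above all 3 blue circles in each panel. Relative to the level, the intervals are widest for miR-345-5p, which had 4 to 20 counts per library.

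miR-186-5p was the most abundant of the 3. The titled untreated libraries held 201, 431 and 337 counts for replicates 1, 2 and 3, or 978, 1190 and 1079 CPM. The titled ETBF libraries held 591, 540 and 883 counts, or 1990, 2436 and 2735 CPM. The groups did not overlap: the lowest titled ETBF library was 1.67 times the highest titled untreated one. The mean went from 1083 ± 106.3 to 2387 ± 374.7 CPM (SD, n = 3). Titled ETBF was 2.20-fold higher, with a log2 fold change of 1.14 (SE 0.13). Ranked by counts within a library, which needs no scaling between libraries, miR-186-5p stood at 55 to 58 in the titled untreated and at 36 to 41 in the titled ETBF libraries.

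miR-139-5p was the middle one in level. It held 15, 23 and 28 counts in titled untreated replicates 1, 2 and 3, or 73.0, 63.5 and 89.7 CPM. It held 45, 42 and 92 counts in the titled ETBF replicates, or 151.5, 189.5 and 284.9 CPM. The groups again did not overlap, and titled ETBF replicate 3 was the highest library. The mean went from 75.4 ± 13.2 to 208.7 ± 68.7 CPM (SD, n = 3). Titled ETBF was 2.79-fold higher, with a log2 fold change of 1.48 (SE 0.28). Its rank within a library was 135 to 151 in the titled untreated and 104 to 121 in the titled ETBF group.

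miR-345-5p was the scarcest. It held 4, 11 and 6 counts in titled untreated replicates 1, 2 and 3, or 19.5, 30.4 and 19.2 CPM. It held 13, 11 and 20 counts in the titled ETBF replicates, or 43.8, 49.6 and 61.9 CPM. The groups did not overlap in CPM, but the raw counts did: 11 counts occurred in titled untreated replicate 2 and in titled ETBF replicate 2, the deeper and the shallower of that pair. For those 11 counts the exact 95% Poisson interval ran from 5.49 to 19.7, and for the 4 counts of titled untreated replicate 1 from 1.09 to 10.2. These intervals cover counting error only. The mean went from 23.0 ± 6.38 to 51.8 ± 9.27 CPM (SD, n = 3). Titled ETBF was 2.17-fold higher, with a log2 fold change of 1.12 (SE 0.31). Its rank within a library was 204 to 227 in the titled untreated and 164 to 174 in the titled ETBF group.

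The order of levels, miR-186-5p above miR-139-5p above miR-345-5p, was the same in each of the 6 libraries, and the ranges of neighbours in that order did not overlap within either group. Counts are 1 per read and were not divided by the length of the miRNA.

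All 3 members were among the called entries, where a call is an adjusted p under 0.05 in edgeR's quasi-likelihood test, as were 14.4% of all tested entries (28 of 195, of which 10.8% of tested entries were called higher). Nothing is read from that count, since the members were chosen for this difference. All 3 were at least 2-fold higher in the titled ETBF libraries, against 8.72% of tested entries. All 3 had groups that did not overlap, against 39% of tested entries in either direction and 19.5% with titled ETBF above. For the same reason, nothing is read from these comparisons either. By size of the log2 fold change, miR-139-5p ranked 7, miR-186-5p ranked 12 and miR-345-5p ranked 14 from the highest of 195. The median over all tested entries was -0.03.

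**Figure D2:**
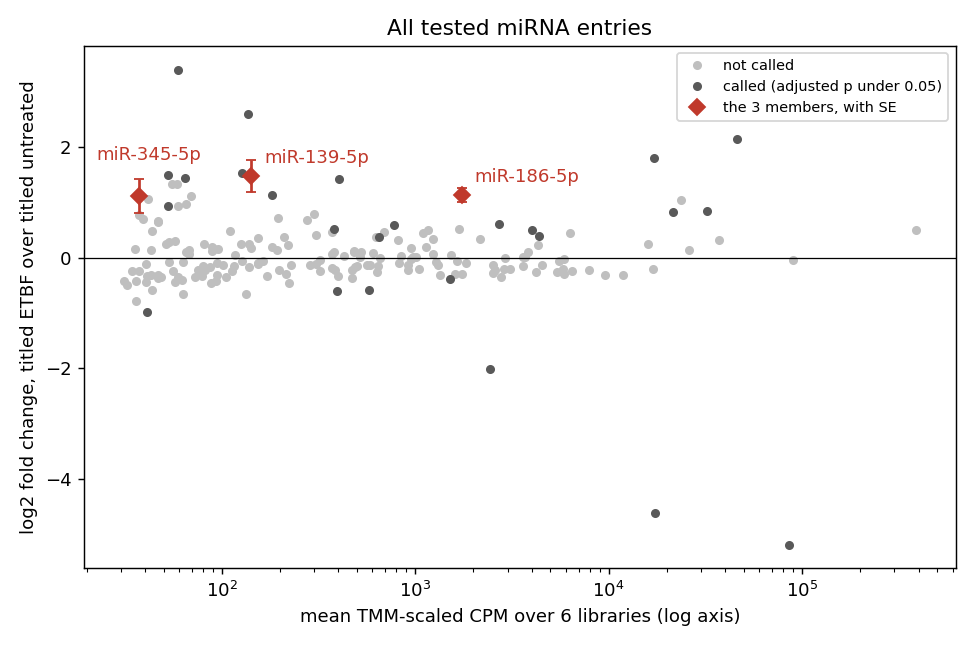
Mean TMM-scaled CPM over the 6 libraries (log axis) against the log2 fold change of titled ETBF over titled untreated libraries, for the 195 tested entries. Light points were not called, dark points were called, and red diamonds with SE bars are miR-345-5p, miR-139-5p and miR-186-5p, at 1.12, 1.48 and 1.14.

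None of the 6 entries nearest to the members in abundance was called, beside 14.4% of all tested entries. Among so few entries, nothing is read from this. The nearest tested entries in mean level were miR-532-5p and miR-199a-5p around miR-186-5p, miR-195-5p and miR-135b-5p around miR-139-5p, and miR-19a-3p and miR-339-5p around miR-345-5p. The log2 fold change of miR-532-5p was 0.52 (SE 0.18) and that of miR-199a-5p was -0.29 (SE 0.09). miR-195-5p had 0.25 (SE 0.19) and miR-135b-5p had -0.14 (SE 0.18). miR-19a-3p had -0.42 (SE 0.32) and miR-339-5p had -0.79 (SE 0.32). The edgeR adjusted p of these 6 neighbours ran from 0.0601 to 0.623. For miR-199a-5p, miR-135b-5p and miR-339-5p the groups did not overlap, with titled ETBF lower. Over all tested entries 39% did not overlap, in either direction.

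The proportions of the members to one another overlapped between the groups. The ratios are taken within a library, so depth and scaling cancel. The ratio of miR-186-5p to miR-139-5p counts was 13.4, 18.7 and 12.0 in titled untreated replicates 1, 2 and 3, and 13.1, 12.9 and 9.60 in the titled ETBF replicates. Its mean was 14.7 ± 3.54 and 11.9 ± 1.97 (SD, n = 3), and the groups overlapped. The ratio of miR-186-5p to miR-345-5p was 50.2, 39.2 and 56.2 in the titled untreated and 45.5, 49.1 and 44.1 in the titled ETBF replicates, with means of 48.5 ± 8.62 and 46.2 ± 2.56. The titled ETBF values lay inside the range of the titled untreated ones. The ratio of miR-139-5p to miR-345-5p averaged 3.50 ± 1.31 and 3.96 ± 0.582, and here too the titled ETBF values of 3.46 to 4.60 lay inside the titled untreated range of 2.09 to 4.67. Any difference in proportions was thus within the spread between libraries, at counts of miR-345-5p too low to show a moderate one.

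**Figure D3:**
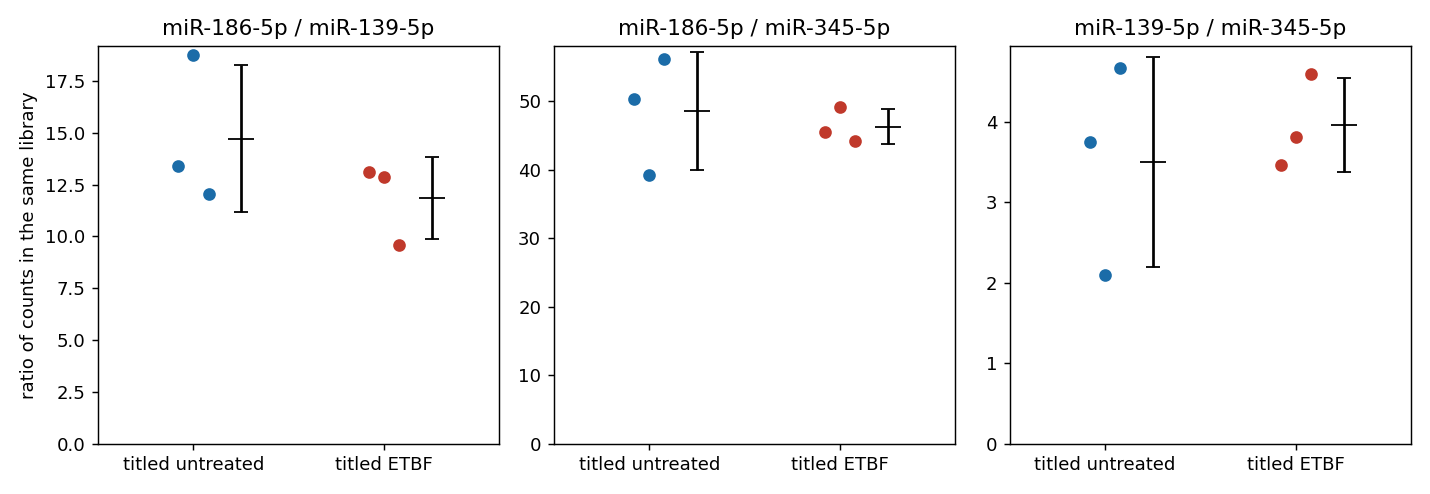
Ratios of raw counts between members within each library (linear axes from 0), with points for the 3 libraries of each titled group and, beside them in black, the mean ± SD. The titled groups overlap in each of the 3 panels.

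The spread among libraries differed between members and depended on the scaling. The coefficient of variation of miR-186-5p was 9.82% in the titled untreated and 15.7% in the titled ETBF libraries, against 5.85% and 3.95% from counting error alone. For miR-139-5p it was 17.6% and 32.9%, against 22.0% and 13.8% from counting. For miR-345-5p it was 27.7% and 17.9%, below the 41.1% and 26.9% that counting gives on average, so no spread beyond counting error was seen for it. In the titled ETBF group all 3 members were lowest in replicate 1 and highest in replicate 3 after TMM scaling. The TMM factors of these replicates were 1.19, 1.00 and 0.776, and miR-148a-3p, the most abundant entry, took 33.1%, 42.6% and 51.1% of their counts.

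Scaled by library size alone, miR-186-5p stood at 2360, 2433 and 2116 CPM in titled ETBF replicates 1, 2 and 3, so that replicate 3 was the lowest. miR-345-5p stood at 51.9, 49.6 and 47.9 CPM, also lowest in replicate 3. miR-139-5p stood at 179.7, 189.2 and 220.5 CPM and remained highest in replicate 3. The highest titled ETBF library of miR-186-5p was 1.37 times the lowest with TMM and 1.15 times with library size alone. For miR-139-5p these values were 1.88 and 1.23, and for miR-345-5p 1.41 and 1.08. With library size alone the titled groups of each member did not overlap. The lowest titled ETBF library was 1.81, 1.88 and 1.61 times the highest titled untreated one for miR-186-5p, miR-139-5p and miR-345-5p. The share of all tested entries without overlap was taken with TMM only, at 39% in either direction and 19.5% with titled ETBF above. Nothing is read from this, since the members were chosen for this difference. Without the entries that overlap structural RNAs the log2 fold changes were 1.18 (SE 0.13), 1.53 (SE 0.28) and 1.17 (SE 0.30), as large as with them.

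**Figure D4:**
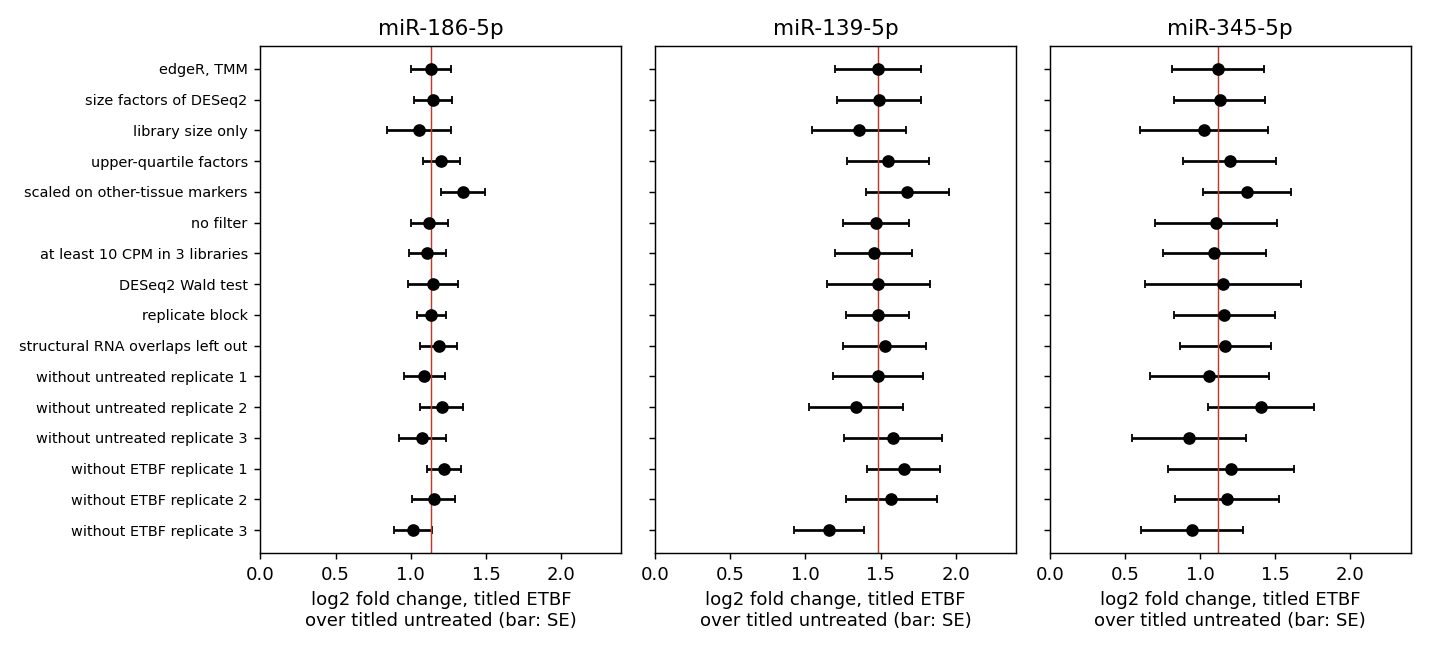
Log2 fold change of each member, titled ETBF over titled untreated, under the reported fit (top row, red line) and 15 alternatives, with SE bars. The values run from 1.02 to 1.35 for miR-186-5p, from 1.16 to 1.68 for miR-139-5p and from 0.93 to 1.41 for miR-345-5p, all above 0. The members were chosen for this difference, so their direction is no support.

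miR-186-5p and miR-139-5p were among the called entries in 16 of 16 settings, and miR-345-5p in 8 of 16. These calls describe the settings only and are no support, since the members were chosen for this difference. Over all tested entries the calls ran from 17 of 202, without titled untreated replicate 3, to 59 of 210, without titled ETBF replicate 1. With no filter they were 51 of 717. miR-345-5p was not called with library size alone, with no filter, with a filter of 10 CPM, with DESeq2, and without titled untreated replicate 1 or 3 or titled ETBF replicate 2 or 3. Leaving out titled untreated replicate 2 gave miR-345-5p a log2 fold change of 1.41, and leaving out replicate 3 of that group gave 0.93. That of miR-139-5p was 1.16 without titled ETBF replicate 3, its highest library.

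Reads came mostly from the 5p arm of each hairpin. miR-186-3p held 0 counts in each of the 6 libraries beside 2983 counts of miR-186-5p. The floor of 3 counts would there be a 3p share of 0.101%. miR-345-3p also held 0 counts, beside 65 of miR-345-5p, where that floor would be a share of 4.62%. The 95% Wilson interval of the 5p share was 99.87% to 100% for MIR186 and 94.4% to 100% for MIR345. miR-139-3p had counts above 0 in 5 libraries, with 7, 2 and 0 counts in titled untreated replicates 1, 2 and 3 and 4, 6 and 2 in the titled ETBF replicates. The counts of 2 lie below the floor of 3 counts. The 5p arm made up 68.2% of the reads of both MIR139 arms in titled untreated replicate 1 (95% Wilson interval 47.3% to 83.6%), 92.0% in replicate 2 (75.0% to 97.8%) and 100% in replicate 3 (87.9% to 100%). In the titled ETBF libraries it made up 91.8% (80.8% to 96.8%), 87.5% (75.3% to 94.1%) and 97.9% (92.6% to 99.4%). Titled untreated replicate 1 was the lowest, and the groups overlapped. miR-139-3p was too scarce to be tested, so a difference in this arm was not detectable at this depth.

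Over the 6 libraries, the tested entries most alike in log2 CPM to miR-186-5p were let-7g-5p (Pearson r = 0.998) and miR-100-5p (0.993). Those most alike to miR-139-5p were miR-548o-3p (0.997) and miR-186-5p (0.952), and those most alike to miR-345-5p were let-7g-5p and miR-423-5p (both 0.986). Among the members, r was 0.952 between miR-186-5p and miR-139-5p, 0.974 between miR-186-5p and miR-345-5p and 0.882 between miR-139-5p and miR-345-5p. These values are descriptions over 6 points that fall into the titled groups and share depth and scaling, so any entry higher in the same group scores high. let-7g-5p, of the let-7 family that represses RAS genes, had a log2 fold change of 0.83, and miR-100-5p, a repressor of mTOR, one of 1.81. miR-548o-3p, of a family derived from transposons, had 1.43, and miR-423-5p had 0.58.

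Among other miRNAs known as tumour suppressors in colorectal cancer, most entries were not called. Of 30 listed entries 23 were tested: 3 rose in titled ETBF, 1 fell and 19 were not called. That is 17.4% called, beside 14.4% of all tested entries, and the list's median log2 fold change was -0.11 beside -0.03. The 3 higher entries were miR-7-5p, a repressor of the EGF receptor, at 2.14 (SE 0.12), miR-149 at 2.59 (SE 0.23) and miR-320a at 0.38 (SE 0.09), with edgeR adjusted p of 2.62e-06, 8.18e-05 and 0.0286. miR-375, abundant in endocrine and gut epithelial cells, was the lower one at -0.61 (SE 0.17, edgeR adjusted p = 0.0432). The split of these calls depended on the setting. There were 2 calls, both higher, with library size alone, with DESeq2, and without titled untreated replicate 2 or 3 or titled ETBF replicate 3. There were 6 calls, 6 higher and 0 lower, when libraries were scaled on other-tissue markers, and 6 calls, 2 higher and 4 lower, without titled ETBF replicate 1. The call of a lower entry was also absent without titled ETBF replicate 2, with 3 higher and 0 lower. The most abundant listed entries were miR-7-5p and miR-26a-5p, the latter at 24738 ± 1598 and 27361 ± 2237 CPM (SD, n = 3), a log2 fold change of 0.15 (SE 0.11, edgeR adjusted p = 0.413).

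Among other miRNAs known to lie within protein-coding genes, a few entries were called, each higher in titled ETBF. Of 54 listed entries 31 were tested: 3 rose, 0 fell and 28 were not called, or 9.68% called beside 14.4% of all tested entries, with a median log2 fold change of -0.07. The 3 were miR-7-5p, miR-149 and let-7g-5p (edgeR adjusted p = 0.00249), which have a locus in HNRNPK, GPC1 and WDR82 in GENCODE release 29. miR-7-5p has 3 loci, so its level may count some reads more than once. In that annotation 30 of the 31 tested entries have a locus in an intron of a protein-coding gene on the same strand, and miR-328-3p has none. 7 tested entries stand in both lists. The count was 7 with upper-quartile scaling, 8 when scaled on other-tissue markers, 6 with no filter, 6 with the replicate block, 5 without the structural RNA overlaps and 9, of which 3 were lower, without titled ETBF replicate 1.

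The tested entries were also grouped by the annotation alone. Apart from the members, 72 tested entries had every locus in an intron of a protein-coding gene on the same strand, as MIR186 and MIR139 have. Of these 6 were called, or 8.33%, all 6 of them higher, and their median log2 fold change was 0.04. Counting entries with at least 1 such locus, which adds 14 entries, 11 of 86 were called, or 12.8%, with 10 higher and 1 lower and a median of 0.09. Of the 106 tested entries with no such locus, as is the case for MIR345, 14 were called, or 13.2%, with 8 higher and 6 lower and a median of -0.12. These shares stand beside 13.0% of all 192 tested entries other than the members, with 18 called higher and 7 lower and a median of -0.05. These groups of entries were drawn up after the data were seen and were not compared by a test. The 1 lower entry with such a locus was miR-7641, and the 6 lower entries without one included miR-6087 and miR-1246. All 3 named here overlap structural RNAs, which differed between the titled groups in their part of the counts.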

How the data were processed

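The authors deposited 1 table per library with raw, whole-number counts for 2575 mature miRNA entries. Trimmomatic, FastQC, featureCounts and build GRCh37.p5 are named, per the submitters' processing notes. Their versions, the aligner and the handling of reads with several positions are not stated there. Per the labels' protocols, 100 ng of total RNA entered each library.

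The 6 libraries were grouped by sample title. edgeR's filterByExpr (minimum count 10) kept 195 entries. After TMM scaling, groups were compared by the quasi-likelihood test of edgeR (two-sided), with p-values adjusted by Benjamini-Hochberg over the 195 entries and a threshold of 0.05. The SE was taken as |log2 fold change| / √F. CPM values use TMM-scaled library sizes, and likeness is Pearson's r of log2 CPM with a prior count of 2. Replicates of a group differed beyond sampling noise (chi-square divided by its degrees of freedom, 10.04 to 104.5), so each library was counted once.

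The members and lists were chosen with earlier results of these data known. The text names the members, their other arms, entries sharing a seed, the 2 most alike and the nearest in level to each member, and in each list the called and the 2 most abundant entries. All 195 tested entries were placed in GENCODE release 29. Alternatives were other scalings (DESeq2 size factors, library size only, upper-quartile factors, other-tissue markers), other filters (none, or 10 CPM in 3 libraries), the DESeq2 Wald test, a replicate block, structural RNA overlaps left out, and each replicate left out. Scripts were tested on simulated data. Software was R 4.3.3, edgeR 4.0.16 and DESeq2 1.42.0.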

Additional observations from a re-analysis of the deposited data

How the results depend on the processing

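All 3 members kept their direction in each of the 15 alternatives. That is no support, since the members were chosen for this difference and the alternatives reuse the same libraries. miR-186-5p had a log2 fold change of 1.35 when scaled on other-tissue markers, which shifted tested entries by a median of 0.20, and leaving out single replicates gave 1.02 to 1.22. miR-139-5p ran from 1.16 to 1.65 and miR-345-5p from 0.93 to 1.41 over the replicates left out. The 28 calls over all tested entries (21 higher, 7 lower, 75% higher) became 49 (45 and 4, 91.8% higher) with scaling on other-tissue markers, and 51 with no filter. The share of higher calls was 85.7% of 42 with upper-quartile factors, 88.2% of 34 without structural RNA overlaps and 64.4% of 59 without titled ETBF replicate 1. Leaving out single replicates gave 17 to 59 calls, with 17 without titled untreated replicate 3 and 17 without titled ETBF replicate 3. The 4 calls in the tumour-suppressor list became 2 with library size only, 2 with the DESeq2 Wald test, 6 (6 higher, 0 lower) with scaling on other-tissue markers, and 2 to 6 over the replicates left out, the 6 without titled ETBF replicate 1 being 2 higher and 4 lower. The 3 calls in the host-gene list became 7 with upper-quartile factors, 8 when scaled on other-tissue markers, 6 with no filter and 5 without structural RNA overlaps, and 3 to 9 over the replicates left out. The cause of these moves was not tested.

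With the replicate block there were 38 calls over all entries, 4 in the tumour-suppressor list and 6 in the host-gene list, and the members had 1.14, 1.48 and 1.16. Same-numbered libraries of the titled groups had deviations correlated at 0.18, 0.10 and 0.05. Between differently numbered libraries the correlation ran from -0.16 to 0.07, highest between titled ETBF replicate 3 and titled untreated replicate 2. Replicates carry only a number in the titles, and whether same-numbered libraries shared a batch was not tested. Depth limits miR-345-5p most, with 4 to 20 counts per library.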
